A study of Mus musculus with 8 samples.

Results

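Remote intergenic open chromatin was described in mouse bone marrow stem and progenitor cells. A peak was remote when its summit lay more than 100 kb from every transcription start site (TSS) of a protein-coding or lincRNA gene and outside every gene body of the GENCODE M21 basic annotation of mm10. By this rule 14169 of 489708 peaks on chromosomes 1 to 19 were remote. Peaks that overlapped by at least 1 bp were merged across the libraries into 120069 regions, and the 4325 regions that held a remote peak are the remote regions. In 24 of these, another peak of the same region did not meet the rule.

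Chromatin accessibility was profiled by ATAC-seq, which cuts open DNA with the Tn5 transposase, in LSK+ (Lin-c-Kit+Sca-1+) and LSK- (Lin-c-Kit+Sca-1-) cells of 4.5-month-old females on a mixed 129Sv4/Jae and B6 background. LSK+ cells hold the stem and multipotent progenitor cells, and LSK- cells are myeloid progenitors. Both were isolated from wild-type (WT) females and from females in which a Vav-iCre transgene, active across the hematopoietic system, had deleted both copies of Xist (XistΔ/Δ). The 4 groups (LSK+ WT, LSK+ XistΔ/Δ, LSK- WT and LSK- XistΔ/Δ) held 2 biological replicates each, and about 10000 cells entered each reaction. Xist encodes the RNA that silences the inactive X chromosome in females, so the autosomal regions described here lie outside the chromosome it coats.

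Open chromatin far from genes is typically made up of enhancers, short stretches bound by transcription factors that act on promoters over long distances, often across a gene desert. Genes of cell identity and development tend to lie beside large deserts that hold many such elements. In blood progenitors, PU.1, RUNX and GATA factors bind many of them, PU.1 being known for the lymphoid and myeloid lineages and GATA1 and GATA2 for stem cells and for the erythroid, megakaryocytic and mast cell lineages. CTCF, in contrast, binds the anchors of chromatin loops.

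The windows of 300 bases below were centred on the summit and read from the GRCm38.p6 reference (the assembly of mm10). They are examples picked by rank and are not typical. Over all 4325 remote windows the median GC content was 45% and the median number of CpG dinucleotides was 3. Capitals mark exact matches, on either strand, to 8 motif words. They are the core motif of CTCF, GAGGAAGT for the ETS factor PU.1, AGATAA for the GATA factors, TGTGGTT for the RUNX factors, TTGCNNAA for the C/EBP factors, TGANTCA for the AP-1 dimers, TGACAG for the MEIS factors and AAGATGG for the factor YY1. The first ranked high in all 8 libraries and held 33 CpG dinucleotides. Its summit lies 124 bp from the start of Zswim6, described below.
Kif2a to Ndufaf2 desert, chr13:107890038-107890337, plus strand: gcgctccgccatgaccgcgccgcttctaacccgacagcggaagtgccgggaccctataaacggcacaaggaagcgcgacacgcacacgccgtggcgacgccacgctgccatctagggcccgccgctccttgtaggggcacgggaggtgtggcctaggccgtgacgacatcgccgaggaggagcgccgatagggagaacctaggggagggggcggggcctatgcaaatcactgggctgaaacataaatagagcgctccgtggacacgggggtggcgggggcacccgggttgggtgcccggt
The next 3 were among the strongest peaks of LSK+ cells alone, and 1 of them held a PU.1 word. The summit beside Arf6 lies at the start of a long noncoding RNA gene, described below.
Adra1b to Il12b desert, chr11:44136076-44136375, plus strand: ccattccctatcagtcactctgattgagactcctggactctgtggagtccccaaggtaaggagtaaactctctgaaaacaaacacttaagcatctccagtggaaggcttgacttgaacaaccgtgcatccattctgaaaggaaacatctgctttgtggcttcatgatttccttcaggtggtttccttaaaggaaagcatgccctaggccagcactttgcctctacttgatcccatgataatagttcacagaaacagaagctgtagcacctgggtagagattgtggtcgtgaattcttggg
Arf6 to Vcpkmt desert, chr12:69475398-69475697, plus strand: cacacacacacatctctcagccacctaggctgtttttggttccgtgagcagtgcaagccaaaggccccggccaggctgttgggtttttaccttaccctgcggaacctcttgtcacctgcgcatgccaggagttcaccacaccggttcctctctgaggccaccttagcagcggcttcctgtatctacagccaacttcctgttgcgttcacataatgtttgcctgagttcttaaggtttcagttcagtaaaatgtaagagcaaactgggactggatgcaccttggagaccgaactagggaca
Kcna4 to Mettl15 desert, chr2:108764679-108764978, plus strand: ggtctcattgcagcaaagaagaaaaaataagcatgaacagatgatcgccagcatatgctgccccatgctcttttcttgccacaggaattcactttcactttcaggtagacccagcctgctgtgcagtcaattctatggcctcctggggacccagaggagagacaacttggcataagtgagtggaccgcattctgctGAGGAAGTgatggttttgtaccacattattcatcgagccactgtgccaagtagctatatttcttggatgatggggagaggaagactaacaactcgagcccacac
The next 3 were among the strongest peaks of LSK- cells alone, and GATA words stood in those beside Mycn and Dab2.
Fam49a to Mycn desert, chr12:12488207-12488506, plus strand: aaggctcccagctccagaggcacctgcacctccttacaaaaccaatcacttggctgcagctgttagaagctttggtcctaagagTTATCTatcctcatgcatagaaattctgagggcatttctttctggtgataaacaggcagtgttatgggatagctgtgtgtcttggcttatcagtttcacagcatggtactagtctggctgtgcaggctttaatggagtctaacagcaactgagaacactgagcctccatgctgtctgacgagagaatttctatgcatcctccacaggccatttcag
Rngtt to Cnr1 desert, chr4:33738078-33738377, plus strand: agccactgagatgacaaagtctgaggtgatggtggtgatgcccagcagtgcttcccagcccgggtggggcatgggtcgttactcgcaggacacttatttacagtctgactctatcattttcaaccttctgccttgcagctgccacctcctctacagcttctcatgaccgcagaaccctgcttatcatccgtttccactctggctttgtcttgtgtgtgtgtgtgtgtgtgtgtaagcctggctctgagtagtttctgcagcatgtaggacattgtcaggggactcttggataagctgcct
Ptger4 to Dab2 desert, chr15:5658856-5659155, plus strand: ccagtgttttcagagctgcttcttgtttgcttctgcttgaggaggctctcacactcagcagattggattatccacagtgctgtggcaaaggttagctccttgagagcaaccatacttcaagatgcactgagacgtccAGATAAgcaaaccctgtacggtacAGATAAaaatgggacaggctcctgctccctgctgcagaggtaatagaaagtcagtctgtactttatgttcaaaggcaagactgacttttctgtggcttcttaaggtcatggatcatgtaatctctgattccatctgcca
The last window ranked higher in XistΔ/Δ than in WT libraries and held a YY1 word.
Gm31371 to Gm15319 desert, chr8:20122142-20122441, plus strand: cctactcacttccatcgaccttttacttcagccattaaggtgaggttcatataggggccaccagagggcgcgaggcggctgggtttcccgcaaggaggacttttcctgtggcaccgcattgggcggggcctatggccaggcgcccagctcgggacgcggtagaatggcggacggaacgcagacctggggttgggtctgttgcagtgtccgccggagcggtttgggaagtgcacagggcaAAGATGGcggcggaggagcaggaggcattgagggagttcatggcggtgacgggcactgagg

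The peak lists differed in length and depth. They held 29134 to 89216 autosomal peaks, and the background pileup, the typical number of overlapping fragments outside peaks and a proxy of depth, ranged from 0.48 in LSK+ WT replicate 2 to 3.87 in LSK- XistΔ/Δ replicate 1. Since the lists differ, most comparisons of presence were also made on the strongest 29134 peaks of each library, termed the top lists. Of 8 progenitor genes, 6 to 8 had a promoter peak in every library, and among markers of other cells the promoters of Cd79a, Cd3e, Cd8a, Cd4 and Ly6g had none in any. The promoter of Ly6a, which encodes the Sca-1 antigen used in the sort, had a peak in only 2 of 8 libraries, of which 1 was LSK+, so it did not separate the cell types. The promoter of Hbb-bt, a beta-globin gene of erythroid cells, had a peak in both replicate 1 libraries of LSK+ cells, at percentiles 19.98 and 24.1, and in all LSK- libraries, at 67.7, 45.7, 75.8 and 50.3, with no overlap.

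Remote sequence was sparsely open. It spanned 479 Mb, or 20.0% of the autosomal sequence, and held 3.602% of the regions. This amounts to 9.03 regions per Mb, compared with 60.4 per Mb elsewhere. The density ranged from 6.82 per Mb on chromosome 5 to 12.1 per Mb on chromosome 4. The median remote region lay 167 kb from the nearest TSS, 1607 regions lay beyond 200 kb, 268 beyond 500 kb and 15 beyond 1 Mb.

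Most remote regions were detected in few libraries. A peak in only 1 library was found for 1385 regions (32.0%, against 25.8% of the 32078 intergenic regions nearer to genes, which lie outside gene bodies and more than 3 kb but at most 100 kb from a TSS). A peak in all 8 libraries was found for 313 regions (7.24%, against 10.8% of nearer intergenic regions and 17.4% of all regions).

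**Figure D1:**
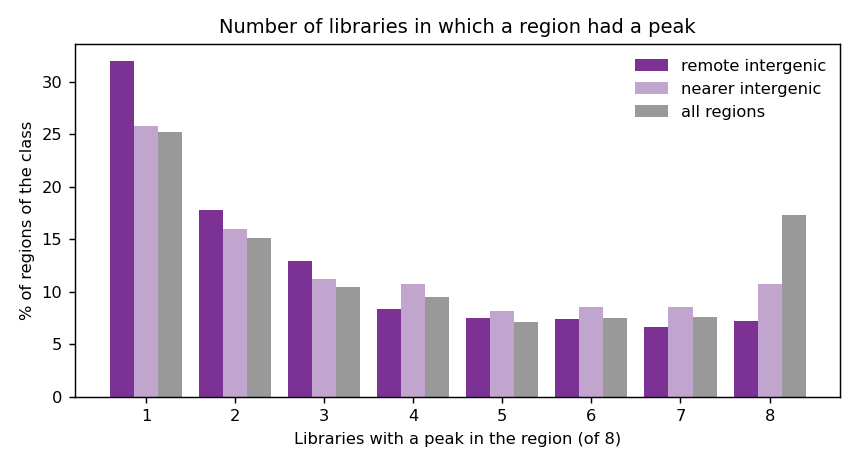
Percentage of regions (y axis) by the number of libraries, of 8, that had a peak in the region (x axis), for remote intergenic, nearer intergenic and all autosomal regions. Of the remote regions, 32.0% had a peak in 1 library and 7.24% in all 8.

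Remote peaks were narrower, lower in GC content and poorer in CTCF words than nearer intergenic peaks of the same library. The width averaged over the medians of 8 libraries was 314 ± 66.8 bp (SD, n = 8) for remote and 334 ± 72.8 bp for nearer peaks, and was smaller for remote peaks in 8 of 8 libraries (mean difference -19.2 bp, exact two-sided sign-flip test p = 0.00781, the smallest this design allows, adjusted p = 0.0109 over 7 measures). Mean GC content in the windows was 46.1 ± 0.874% against 49.4 ± 1.02%, also lower in 8 of 8 libraries (exact adjusted p = 0.0109). The CTCF word stood in 2.08 ± 0.537% of remote against 4.38 ± 0.364% of nearer windows, lower in 8 of 8 libraries (exact adjusted p = 0.0109). A merged region had the same window in every library that held it. For GC content and the CTCF word the libraries therefore reuse windows, and these p-values do not rest on independent libraries.

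Their rank within a library was slightly lower as well. Peaks were ranked by the p-value of the peak caller and the rank expressed as a percentile, with 100 for the strongest. The median percentile of remote peaks was 40.1 ± 2.67 against 44.0 ± 3.58 for nearer peaks, lower in 7 of 8 libraries (exact p = 0.0156, adjusted p = 0.0182), the exception being LSK+ WT replicate 2, the library with the shortest list. Above percentile 90 of a list stood 2.24 ± 1.57% of remote and 3.30 ± 1.55% of nearer peaks, with remote lower in 8 of 8 libraries (exact adjusted p = 0.0109). Remote peaks also stood on a lower surround: the local background at the peak was 1.05 ± 0.0855 times that of the library, against 1.37 ± 0.114 times for nearer peaks, and was lower in 8 of 8 libraries (exact adjusted p = 0.0109).

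Bases soft-masked in the reference, an approximate measure of repeats, covered 13.1 ± 0.864% of remote and 13.6 ± 1.35% of nearer windows, a difference of -0.572 percentage points with 7 of 8 libraries lower (exact p = 0.0391, adjusted p = 0.0391). The value of remote windows lay far below the 40.9% of all remote sequence that is soft-masked. Over all autosomal sequence the share is 33.5%, and for nearer intergenic sequence it was not computed. The libraries reuse windows here too, so this p-value does not rest on independent libraries. Reads with a mapping quality under 30 had been removed before peak calling, and the part of this step was not tested.

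The pair of remote regions with the highest lowest percentile over the libraries lay at gene starts that the rule did not count. The highest, chr13:107889728-107891644, stood at percentiles 95.7 and 95.4 for WT and 98.7 and 99.1 for XistΔ/Δ among LSK+ libraries, and 98.6 and 99.1 for WT and 98.5 and 99.4 for XistΔ/Δ among LSK- libraries. All 8 libraries were high, and the groups overlapped. Its summit lies 124 bp from the start of Zswim6, which GENCODE M21 lists as a processed transcript and RefSeq as a protein-coding gene, and its window held 33 CpG dinucleotides with a GC content of 67.7%. The next, chr12:17881399-17882325, had its lowest percentile at 94.6 and lies inside Gm9222, which RefSeq lists as a protein-coding gene, while the nearest GENCODE TSS, 447 bp away, is that of the unprocessed pseudogene Gm49326.

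Of the next regions by this measure, 3 were not at such a start. One of them, chr12:29290730-29291408, between Eipr1 and Myt1l, had a lowest percentile of 89.6 and lies 26455 bp from the nearest RefSeq start, that of a pseudogene. A region 116 kb from Fam49a and 439 kb from Mycn, a MYC family gene of proliferating progenitors, stood at chr12:12496271-12497515. It had a lowest percentile of 89.1 and lies inside the RefSeq long noncoding RNA gene Gm34489. Another, chr9:61665914-61666573, between Tle3, which encodes a transcriptional corepressor, and Rplp1, had a lowest percentile of 85.0. In the fits of rank explained below, these 3 were lower in LSK- with the replicate number as a block (limma adjusted p = 0.0033, 0.000303 and 0.0381) and did not pass without it (0.120, 0.165 and 0.390). Since the first pair is not far from every annotated start, starts of other kinds were counted over all remote regions.

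Some remote regions lay at a start of another kind. Of the 4325 regions, 106 (2.45%) lay within 1 kb of a GENCODE TSS of another biotype, and 12 of these were among the 313 regions in all 8 libraries (3.83%). Antigen receptor segments made up 55 of the 106: the immunoglobulin heavy chain segments lie in the desert from Adam6a to Zfp386, which held 42 regions, and the T cell receptor alpha segments in that from Olfr1507 to Dad1, which held 43. RefSeq placed a protein-coding start within 1 kb of 9 regions, among them B3galt1, Sox5, Rarb and Arhgap24, and within 100 kb of 209. Counting RefSeq starts of any kind, 173 regions (4%) lay within 1 kb of one, 22 of them among the 313 in all 8 libraries (7.03%), and 604 (13.97%) lay inside a RefSeq gene body. Within 100 kb of a GENCODE TSS of any other biotype lay 2940 regions. Requiring distance from RefSeq protein-coding genes too left 4070 regions.

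Remote regions were dense beside genes of the blood system. Beside 21 of 46 listed blood transcription factors stood 237 regions, or 25.8 per Mb of remote sequence in their deserts, and beside 7 of 27 blood receptors and surface genes 80 regions, or 25.4 per Mb. Developmental regulators of other tissues had 190 regions at 9.51 per Mb, close to the 9.03 per Mb of all remote sequence, and neuronal and cell adhesion genes had 126 regions over 67.2 Mb, or 1.88 per Mb. Counting regions in at least 4 libraries kept this order, with 10.4, 10.2, 2.85 and 0.655 per Mb against 3.36 per Mb in all. Counting regions in all 8 libraries changed the order, with 1.52 per Mb for the transcription factors, 4.45 for the receptors, 0.800 for the developmental and 0.0446 for the neuronal list, against 0.653 in all. These densities are descriptions without a test, and the lists were drawn up with earlier results of these data known.

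**Figure D2:**
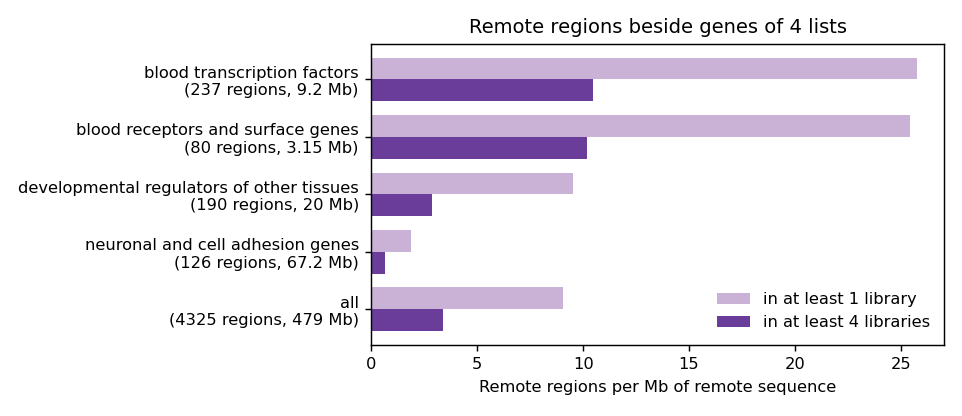
Remote regions per Mb of remote sequence (x axis) in deserts flanked by a gene of each of 4 lists and in all deserts, counting regions with a peak in at least 1 library (light bars) or at least 4 (dark bars). The blood lists reach 25.8 and 25.4 per Mb, the neuronal and cell adhesion list 1.88.

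Among the blood transcription factors, Mycn flanked 34 regions, Runx1, which is required for blood stem cells to form, 26, Klf4 22, Zeb2 20, Meis1, a stem cell homeodomain factor, 19, and Nfia 18. At chr4:56113645-56114395, in the Klf4 desert, the percentiles were 96.9 and 77.01 for WT and 95.5 and 90.2 for XistΔ/Δ among LSK+ libraries, and 80.8 and 74.8 for WT and 77.2 and 83.7 for XistΔ/Δ among LSK- libraries. Both genotypes were high in both cell types, and the ranges of the cell types overlapped (LSK- minus LSK+ in the fits explained below, limma adjusted p = 0.0672, and 0.00156 with the replicate number as a block, lower in LSK-). Among the receptors and surface genes, Ptprc, which encodes the pan-leukocyte antigen CD45, flanked 29 regions, Cd47, the "do not eat me" signal, 17, Tlr4 13, Itga4, an integrin of progenitor homing, 11, and Kit, the stem cell factor receptor, 7.

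In the desert between Nr5a2 and Ptprc, the region chr1:137560233-137561039 stood at percentiles 98.1 and 78.005 for WT and 97.5 and 88.7 for XistΔ/Δ among LSK+ libraries, and 95.7 and 73.3 for WT and 91.7 and 84.9 for XistΔ/Δ among LSK- libraries. It was high in every library, and the groups overlapped (LSK- minus LSK+, limma adjusted p = 0.422, and 0.0248 with the block, lower in LSK-). Beside Cd47, chr16:49986869-49987561 stood at 77.9, 51.5, 91.4 and 85.5 in the LSK+ libraries and 96.6, 77.4, 91.7 and 90.98 in the LSK- libraries, higher in LSK- in 4 of 4 same-numbered pairs although the ranges overlapped (limma adjusted p = 0.204, and 0.0201 with the replicate number as a block, in the fits explained below). Listed regulators of other tissues with many regions were Sox9 with 25, Sox5 with 24 and Dach1 with 23. Of the neuronal list, Flrt2, an axon guidance and adhesion molecule, flanked 37 of the 126 regions. The one of these in all 8 libraries, chr12:92823087-92823990, ranked low, at 28.3, 18.6, 60.4 and 34.6 in the LSK+ libraries and 24.02, 6.33, 28.4 and 15.5 in the LSK- libraries, with overlap. In contrast, chr6:143361224-143362033, in the desert between Etnk1 and Sox5, a SOX factor of cartilage, stood at 94.2, 72.4, 93.9 and 80.9 in the LSK+ libraries and 93.2, 73.5, 82.2 and 79.9 in the LSK- libraries, again with overlap.

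Regions detected in at least 4 libraries were spread over many deserts. There were 1609 such regions in 605 deserts, 263 of which held 1, and the 10 fullest deserts together held 148 (9.20%). The fullest were Fam49a to Mycn and Chd7 to Clvs1, with 19 each, followed by St3gal1 to Zfat and Pard3 to Nrp1 with 16 each. Cdh26 to Cdh4 and Zfp608 to Gramd3 held 14 each, Runx1 to Setd4 and Ptger4 to Dab2 13 each, and Ttll7 to Adgrl2 and Zpld1 to Nfkbiz 12 each. Nfkbiz encodes an inhibitor of the NF-kappa-B family and Ptger4 a prostaglandin E2 receptor. At the other extreme, 481 of 1350 deserts with remote sequence had no region.

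In the top lists, which equalise list length, the Fam49a to Mycn desert had 8, 6, 8 and 7 regions in the LSK+ libraries and 9, 8, 9 and 7 in the LSK- libraries. The Chd7 to Clvs1 desert had 8, 7, 8 and 9 against 7, 7, 7 and 11. In both deserts the cell types overlapped. The regions between Ttll7 and Adgrl2 numbered 4, 2, 4 and 4 in the LSK+ libraries and 6, 7, 7 and 4 in the LSK- libraries, so that 1 LSK- library equalled the highest LSK+ library. For each desert the libraries are named in the order WT replicates 1 and 2, then XistΔ/Δ replicates 1 and 2.

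The share of remote peaks was first compared between genotypes. Remote peaks made up 3.34% and 2.15% of the autosomal peaks for WT and 3.83% and 2.98% for XistΔ/Δ among LSK+ libraries, and 2.69% and 2.01% for WT and 2.69% and 2.55% for XistΔ/Δ among LSK- libraries. Replicate 1 was above replicate 2 in each group, and WT and XistΔ/Δ libraries overlapped. XistΔ/Δ exceeded WT by 0.464 percentage points on average over the cell types, higher in 4 of 4 pairs of the same replicate number, but less than the spread between replicates (pooled SD 0.573; exact stratified permutation test, two-sided p = 0.278, where 0.0556 is the smallest possible; adjusted p = 0.556 over 6 comparisons). With the replicate number as a block the exact sign-flip p was 0.125, the smallest possible with the block. Within replicate 1 the difference was 0.248 and within replicate 2 it was 0.681 points. In the top lists it was -0.0961 points (exact permutation p = 0.778), so the direction reversed with lists of equal length.

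The share of remote peaks was lower in LSK- than in LSK+ cells in 4 of 4 pairs, with a mean difference of -0.591 percentage points over the genotypes (LSK- minus LSK+). This was close to the pooled SD (exact permutation p = 0.222, where 0.0556 is the smallest possible, adjusted p = 0.556; block p = 0.125, the smallest possible with the block). The direction held within replicate 1 (-0.898 points) and replicate 2 (-0.283 points). In the top lists the shares were 2.71% and 2.15% for WT and 2.88% and 2.16% for XistΔ/Δ among LSK+ libraries, and 2.18% and 1.91% for WT and 1.77% and 1.75% for XistΔ/Δ among LSK- libraries. Only LSK- WT replicate 1 overlapped the LSK+ libraries, and all 4 pairs were lower in LSK- (mean difference -0.5715 points, exact permutation p = 0.111, block p = 0.125, which is the smallest possible).

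**Figure D3:**
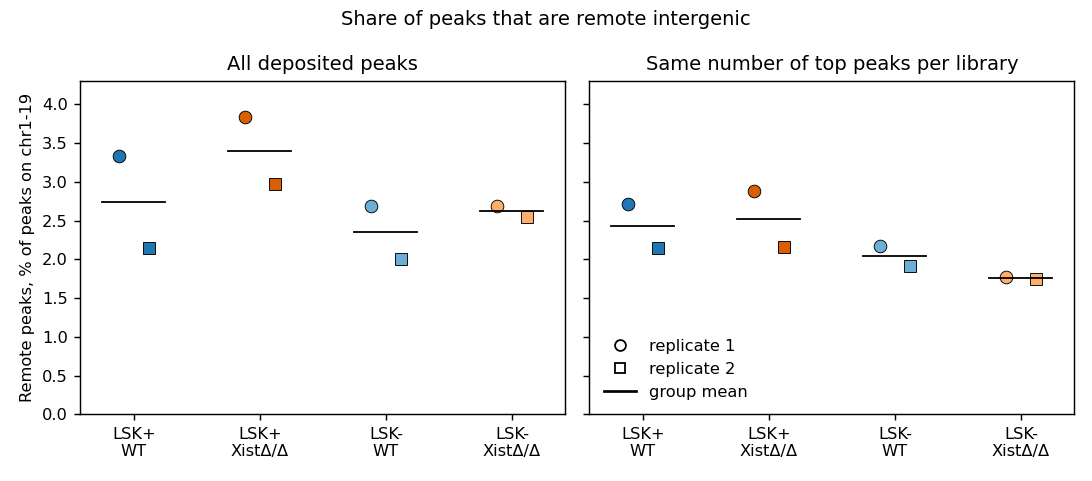
Remote peaks as a percentage of peaks on chromosomes 1 to 19 (y axis) in the 4 groups, for all deposited peaks (left) and the 29134 strongest peaks of each library (right); circles are replicate 1, squares replicate 2 and lines group means. LSK- values reach down to 1.75% on the right, and the highest share on the left is 3.83%.

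Neither rank nor width of remote peaks separated the groups. The median percentile was 42.5 and 37.4 for WT and 41.8 and 37.7 for XistΔ/Δ among LSK+ libraries, and 44.1 and 38.4 for WT and 41.3 and 37.4 for XistΔ/Δ among LSK- libraries. Replicate 1 was the higher in every group and the groups overlapped (XistΔ/Δ minus WT -1.04, exact permutation p = 0.611; LSK- minus LSK+ 0.470, exact p = 0.778). The median width was 385.5 and 330.5 bp for WT and 391 and 273 bp for XistΔ/Δ among LSK+ libraries, and 340 and 241 bp for WT and 345.5 and 208 bp for XistΔ/Δ among LSK- libraries. LSK- peaks were narrower than LSK+ peaks in 4 of 4 pairs, with a mean difference of -61.4 bp, less than the pooled SD of 75.5 bp (exact permutation p = 0.278, block p = 0.125, the smallest possible with the block). Nearer intergenic peaks were narrower in LSK- too. In the same order of libraries their median widths were 410, 337, 412 and 298 bp in LSK+ and 359, 250, 385 and 217 bp in LSK-.

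Which remote regions were open differed more between cell types than between genotypes. For a pair of libraries, the regions in both top lists were expressed as a percentage of the regions in either. Libraries that differed in cell type alone shared 36.8 ± 6.24% (SD, n = 4 pairs), those that differed in replicate number alone 51.4 ± 4.66%, and those that differed in genotype alone 57.4 ± 10.6%. Nearer intergenic regions followed the same order at 44.5 ± 6.82%, 55.5 ± 5.06% and 61.4 ± 8.98%. Pairs of each kind share libraries with the others, so no test was made.

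Of 1044 remote regions in at least 2 top lists, 66 (6.32%) were in the top lists of all 4 LSK+ libraries and of no LSK- library, against 3.3% of all autosomal regions and 3.94% of nearer intergenic regions. The reverse held for 31 (2.97%), against 3.95% of all autosomal regions and 4.65% of nearer intergenic regions. A top list leaves weaker peaks out: 7 of the 66 had no deposited peak in any LSK- library (10.6%, against 6.23% of all such regions) and 13 of the 31 none in any LSK+ library (41.9%, against 45.6%). With all deposited peaks the counts were 40 of 2940 (1.36%, background 0.796%) and 51 (1.73%, background 2.86%), so that the larger count passed from LSK+ to LSK-.

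The LSK+ regions of highest rank lay beside varied genes. At chr11:44135912-44136485, between Adra1b and Il12b, a subunit of interleukin 12, percentiles among the LSK+ libraries were 96.6 and 76.5 (WT), then 96.5 and 85.9 (XistΔ/Δ). In LSK- cells WT replicate 1 stood at 57.3, WT replicate 2 had no peak and the XistΔ/Δ replicates stood at 56.4 and 11.3, so that every LSK+ library was above every LSK- library. The region chr12:69475108-69475910, between Arf6, a small GTPase, and Vcpkmt, lies at the start of the long noncoding RNA gene 5830428M24Rik, 1 bp from its TSS. It stood at 94.1, 78.03, 94.0 and 78.2 in the LSK+ libraries and 49.4, 17.8, 65.0 and 41.8 in the LSK- libraries, again with no overlap. Both regions were chosen for being in LSK+ top lists only, which favours such a separation, so it is no further evidence. Others lay 327 kb from Mettl15, 396 kb from Cdc73, a subunit of the PAF1 elongation complex, and 348 kb from Tcerg1l, with Glrx3 at 392 kb on the other side.

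The 5 LSK- regions of highest rank lay in the deserts from Fam49a to Mycn, Ptger4 to Dab2, Runx1 to Setd4 and, for a pair of them, Rngtt to Cnr1. The region chr12:12487894-12488624 lay 107 kb from Fam49a and 448 kb from Mycn, inside the RefSeq long noncoding RNA gene Gm34489. There the WT replicates of LSK- cells stood at 97.4 and 75.9 and the XistΔ/Δ replicates at 98.7 and 82.3. The only LSK+ peak, in XistΔ/Δ replicate 1, stood at 27.6. Between Ptger4 and Dab2, chr15:5658814-5659303 had percentiles of 90.2, 71.4, 92.4 and 71.6 in the LSK- libraries and no peak in any LSK+ library. In the Runx1 to Setd4 desert, chr16:93147555-93148087, 322 kb from Runx1, stood at 86.5, 53.8, 94.3 and 77.6 in LSK- and at 13.1, no peak, 51.7 and 26.0 in LSK+. In all 3 the lowest LSK- library was above the highest LSK+ library. Being chosen from the LSK- top lists favours this separation, which is therefore no further evidence. The remaining 2, at chr4:33737774-33738528 and chr4:33786830-33787323, share the desert between Rngtt and Cnr1, which encodes a cannabinoid receptor. The latter region lies inside the RefSeq long noncoding RNA gene Gm33059.

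**Figure D4:**
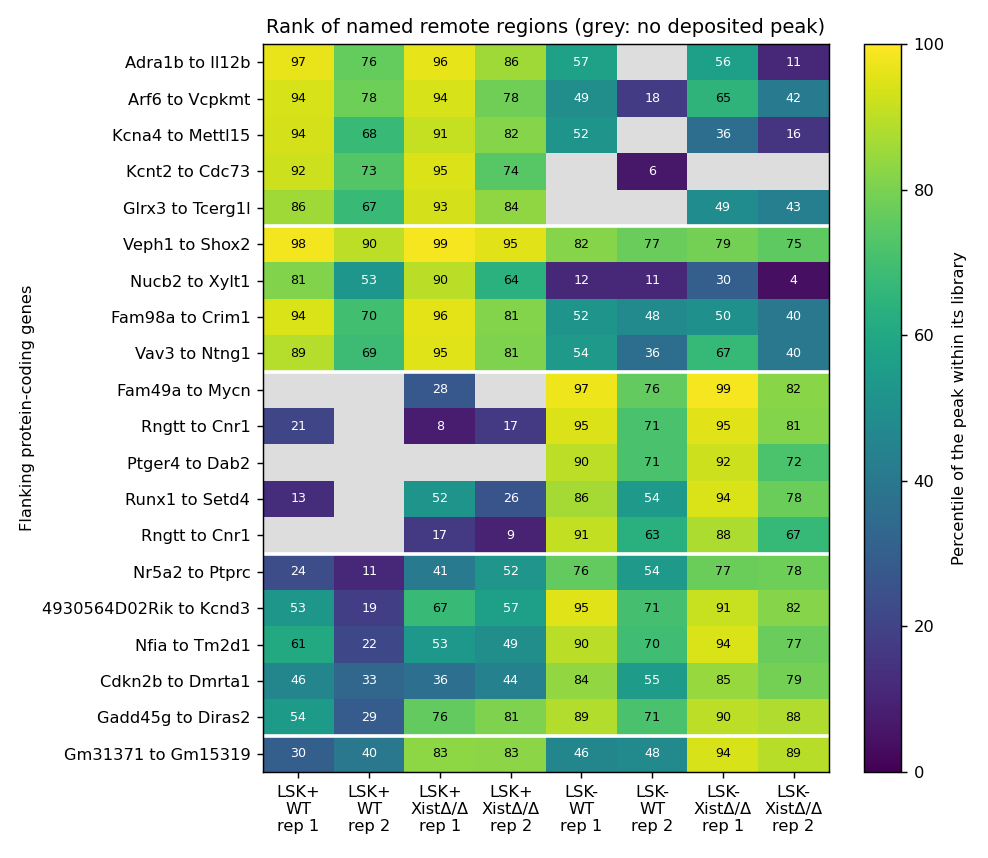
Percentile of the peak within its library (colour and number, 100 the strongest, grey where the list held no peak) for 20 remote regions (rows, named by flanking genes) in the 8 libraries (columns). From top to bottom the blocks are regions in LSK+ top lists only, higher ranked in LSK+, in LSK- top lists only, higher ranked in LSK-, and the region ranked higher in XistΔ/Δ, which stood at 82.6 to 93.9 in XistΔ/Δ and 30.2 to 47.5 in WT.

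Regions of the cell types differed in their motif words. A GATA word stood in 19 of the 31 remote windows of LSK- top lists (61.3%), in 10 of the 66 of LSK+ top lists (15.2%) and in 23.1% of all remote windows, compared with 21.3% of all 120069 windows. A PU.1 word stood in 12 of the 66 LSK+ windows (18.2%), in 1 of the 31 LSK- windows (3.23%) and in 10.7% of all remote windows, against 7.99% of all windows. Away from remote sequence, GATA words stood in 64.7% of nearer intergenic windows of LSK- top lists and in 9.60% of those of LSK+ top lists. The Hbb-bt promoter, given above, ranked higher in the LSK- libraries along with these GATA-word regions, and its part in them was not tested.

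**Figure D5:**
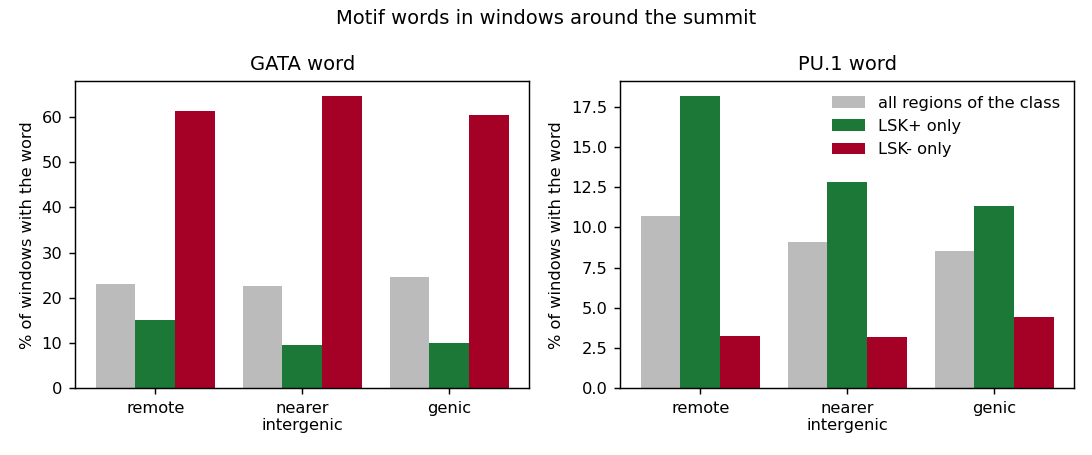
Percentage of windows with a GATA word (left) or a PU.1 word (right) for remote, nearer intergenic and genic regions: all regions of the class (grey), those in the top lists of LSK+ only (green) and of LSK- only (red). Among remote regions the GATA word reaches 61.3% in LSK- only windows and 15.2% in LSK+ only windows.

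Among the regions in all 8 libraries that ranked higher in 1 cell type in the fit with the replicate block, described below, GATA words stood in 13 of 25 for LSK- (52.0%) and 15 of 84 for LSK+ (17.9%). The PU.1 word ran the other way there, in 5 of 25 for LSK- (20.0%) and 7 of 84 for LSK+ (8.33%), while over all regions chosen in this way it stood in 4.75% for LSK- and 14.0% for LSK+. RUNX words stood in 15.2% of LSK+ and 19.4% of LSK- windows, against 17.0% of all remote windows, C/EBP words in 18.2% and 6.45% (18.4%), AP-1 words in 12.1% and 16.1% (13.8%), and MEIS words in 19.7% and 32.3% (23.5%). YY1 words stood in 1 of the 66 and in none of the 31, and in 4.83% of all remote windows. No window of either top-list set held a CTCF word, which was found in 1.99% of all remote and 3.75% of nearer intergenic windows. A match describes the letters of the window and is not a measured binding site, and the letters of the PU.1 word are shared by other ETS factors. Sites that depart from a word by a letter, for CTCF or any other factor, were not counted.

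Differences in rank were then tested across the 20845 regions with a peak in all 8 libraries, of which 313 were remote. Ranks were turned into normal scores and fitted with limma, without the replicate number. At an adjusted p under 0.05, 17 remote regions ranked higher in LSK+ (5.43%, background 2.81%) and 9 higher in LSK- (2.88%, background 1.47%). The median difference (LSK- minus LSK+) was -0.21 score units over the remote regions and 0.05 over all regions. Same-numbered libraries deviated together, so that the fit with the number as a block also applies: it called 84 remote regions higher in LSK+ (26.8%, background 12.2%) and 25 higher in LSK- (7.99%, background 10.1%), which included all 26 of the first fit. The lean to LSK+ was not particular to remote regions. With the block, 654 of 3458 nearer intergenic and 1310 of 5568 genic regions ranked higher in LSK+, and 345 and 555 higher in LSK-. Promoter regions, within 3 kb of a TSS, were 11506 of the 20845, with 493 higher in LSK+ and 1182 higher in LSK-. Without LSK+ WT replicate 1, or without LSK- XistΔ/Δ replicate 1, the first fit called 0 of all 20845 regions (86 and 89 remote regions had an unadjusted p under 0.05).

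The remote region with the smallest p was chr3:66400682-66401659, between Veph1 and Shox2, at percentiles 98.2, 89.9, 98.6 and 95.4 in the LSK+ libraries and 82.0, 77.3, 79.0 and 75.1 in the LSK- libraries. It lies inside the RefSeq long noncoding RNA gene Gm35236, 603 bp from its start. The cell types did not overlap (difference -1.46 ± 0.22 score units, SE, limma adjusted p = 0.0124). A steeper contrast was seen at chr7:117127675-117128101, between Nucb2 and Xylt1, at 81.1, 52.7, 89.7 and 64.0 in LSK+ and 11.7, 11.0, 30.4 and 3.91 in LSK- (difference -1.996 ± 0.35, limma adjusted p = 0.0170). Between Vav3, a guanine nucleotide exchange factor of blood cell signalling, and Ntng1, chr3:109732037-109732904 stood at 89.1, 68.7, 95.04 and 80.8 in LSK+ and 53.7, 36.01, 66.9 and 39.97 in LSK- (difference -1.42 ± 0.27, limma adjusted p = 0.0214). Also higher in LSK+ were the 5830428M24Rik start described above and chr17:78086904-78087413, 113 kb from Crim1.

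Among those higher in LSK-, chr1:137074804-137075190, 114 kb from Nr5a2 in the Ptprc desert, stood at percentiles 23.6, 11.4, 41.2 and 52.1 in LSK+ and 76.0, 53.9, 77.4 and 77.8 in LSK- (difference 1.45 ± 0.25 score units, SE, limma adjusted p = 0.0155). At chr4:98189760-98190593, 71.3 kb from the end of Nfia, which encodes a factor of erythroid commitment, the LSK+ libraries stood at 60.7, 21.9, 53.4 and 49.4, and the LSK- libraries at 89.8, 69.5, 94.2 and 77.3 (difference 1.56 ± 0.27, limma adjusted p = 0.0170). This region lies inside the RefSeq pseudogene Gm12691. The cell types did not overlap in either region. Of the other 3 named by the rule, the first lay 113 kb from 4930564D02Rik and 260 kb from Kcnd3. The next, chr4:89486824-89487395, lay 176 kb from Cdkn2b, a cyclin-dependent kinase inhibitor, and 192 kb from Dmrta1, inside the RefSeq long noncoding RNA gene Gm12610. The last, chr13:52283262-52284014, lay 221 kb from Diras2 and 435 kb from Gadd45g, a stress-response gene. There LSK+ XistΔ/Δ libraries at 76.0 and 80.6 overlapped the LSK- range of 71.4 to 90.1.

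No remote region passed the threshold for genotype in the fit without the block. The background over all 20845 regions was likewise 0 calls in limma. At an unadjusted p under 0.05, 2 remote regions ranked higher in XistΔ/Δ (0.639%, against 0.384% of all regions) and 14 higher in WT (4.47%, against 0.561%). With the block, limma called 1 of 313 remote regions (0.319%) higher in XistΔ/Δ, against 2 of all regions (0.00959%), and none higher in WT (background 0.0048%), where 6 and 24 remote regions had an unadjusted p under 0.05 (1.92% and 7.67%, against 2.32% and 2.63% of all regions). The region is chr8:20122111-20122841, in the sequence shown above, between Gm31371 and Gm15319, 92 bp from the start of the processed pseudogene Gm21769. Percentiles were 30.2 and 39.9 for WT and 83.1 and 82.6 for XistΔ/Δ among LSK+ libraries, and 46.1 and 47.5 for WT and 93.9 and 89.2 for XistΔ/Δ among LSK- libraries. Every XistΔ/Δ library was above every WT library (difference 1.36 ± 0.23 score units with the block, SE, limma adjusted p = 0.0223; adjusted p = 1 without it). The window is rich in CpG (21 dinucleotides, GC 62.7%) and its central 50 bases occur once on the autosomes.

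Presence by genotype shifted with the length of the lists. In the top lists 37 of 806 remote regions were gained in LSK+ XistΔ/Δ, that is in both XistΔ/Δ and no WT library (4.59%, background 3.22%), and 30 were lost (3.72%, background 2.19%). In LSK- cells 12 of 615 were gained (1.95%, background 1.49%) and 31 lost (5.04%, background 1.71%). Of the lost regions, 27 of 30 in LSK+ and 29 of 31 in LSK- still had a deposited peak in both XistΔ/Δ libraries, below the top list (90% and 93.55%, against 91.9% and 92.6% of all lost regions). With all deposited peaks 256 were gained and 0 lost in LSK+ (background 9.86% and 0.0569%) and 141 gained and 4 lost in LSK- (background 6.69% and 0.0654%), with the XistΔ/Δ lists longer than the WT lists of the same replicate number in both cell types.

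Regions that followed genotype in both cell types were few. In the top lists 3 of 1044 remote regions were present in every XistΔ/Δ library and absent from every WT library (0.287%, background 0.071%), and 1 was the reverse (0.0958%, background 0.0122%). With all deposited peaks 16 of 2940 followed XistΔ/Δ (0.544%, background 0.606%) and none WT. The first 3 lay beside Hs3st3a1 (chr11:64328912-64329620), beside Zfat (chr15:68080335-68080925) and between Nrp1 and Itgb1 (chr8:128551186-128551835). The last is 48.2 kb from Nrp1 and 134 kb from Itgb1, which encodes the beta-1 integrin of stem cell adhesion. At this region, the XistΔ/Δ replicates stood at percentiles 69.8 and 57.0 (LSK+) and 68.4 and 62.2 (LSK-), against 44.8 and 32.0 in replicate 1 of LSK+ WT and LSK- WT and no peak in either replicate 2. All 4 XistΔ/Δ libraries were above all WT libraries there, and the WT libraries had weaker peaks or none. The region was chosen by its presence in XistΔ/Δ top lists only, which favours this order. The reverse region, chr4:31658723-31659173, 305 kb from Map3k7, had a peak in all 8 lists, at 56.5 and 46.3 in LSK+ WT against 56.45 and 34.6 in LSK+ XistΔ/Δ, where the genotypes overlapped, although only the WT peaks entered the top lists.

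The farthest remote region of all, 1502 kb from a TSS, lay between D3Ertd751e and Pcdh10 and had a peak in 1 library. Among regions in at least 4 libraries, the 3 farthest lay between Igfbp7 and Adgrl3, a latrophilin adhesion receptor. The first, chr5:79734732-79735215, lay 1286 kb from the nearest TSS counted by the rule, with percentiles of 87.9, 57.7, 79.2 and 74.5 in the LSK+ libraries and no peak in any LSK- library. Its window held GATA, C/EBP and AP-1 words, and a small nuclear RNA of GENCODE starts 15454 bp away. The next, chr5:79966300-79966732, 1055 kb away, was found in 6 libraries of both cell types at percentiles of 28.9 to 63.4. In the same desert, chr5:80819022-80819666 ranked higher in LSK+, at 91.9, 54.9, 91.4 and 72.8 against 57.0, 11.0, 44.5 and 39.97 in LSK- (difference -1.53 ± 0.33 score units, SE, limma adjusted p = 0.0335), with LSK+ WT replicate 2 below 1 LSK- library.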

How the data were processed

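ATAC-seq peak lists of 8 libraries (2 per group) were analysed, with groups and replicate numbers taken from the titles. The authors aligned reads to mm10 with Bowtie2 2.3.5.1, removed mitochondrial reads and reads of mapping quality under 30 with SAMtools 1.10, and called peaks per library with MACS2 2.2.7.1 at a q-value of 0.01. The deposited lists give for each peak a fold enrichment (a ratio), a -log10 p-value, a -log10 q-value, a score made from the latter and a summit offset. No read counts were analysed here.

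Summit pileup and local background were solved from fold and p, which succeeded for 100% of peaks and was tested on simulated data. Peaks were ranked within a list by -log10 p. Percentiles compare rank, not signal, between libraries. The members, gene lists, motif words and named regions were chosen with earlier results of these data known. Named were regions of highest lowest percentile, of highest mean percentile or smallest p among those called, the farthest, the fullest deserts, and list genes with the most regions. Of the 8 windows shown, the rule gave the first and the first 2 of each cell type. The third of each cell type and that on chromosome 8 were added after their values were seen. The window at Gm9222 is not printed because it overlaps an exon of a protein-coding gene by more bases than were allowed. The first window overlaps such an exon by 27 bases, within the limit. Some items covered by these rules are not reported here. The RefSeq check and the test against nearer peaks were also added after the values were seen.

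Measures per library were compared by exact permutation of genotype within cell type, and of cell type within genotype (36 assignments), or with the replicate number as a block (16 sign flips, smallest p 0.125). Ranks of regions were fitted with limma 3.58.1 in R 4.3.3 with Benjamini-Hochberg adjustment. Deviations of same-numbered libraries correlated at 0.400 to 0.690 in 6 of 6 pairs of groups, and the deposited files of each number share a code in their names whose meaning the labels do not give. P-values measure the spread between these libraries. Python 3.11.15, SciPy 1.17.1 and GENCODE M21 were used.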

Additional observations from a re-analysis of the deposited data

Results flagged for a closer look

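The genotype difference in the share of remote peaks differed in sign between the cell types when the top lists were compared. The share was higher in LSK+ XistΔ/Δ than in LSK+ WT by 0.175 percentage points in replicate 1 and 0.00687 in replicate 2, and the difference in LSK- cells was -0.402 and -0.165 points. The difference in LSK- minus that in LSK+ was -0.374 points. Each pair within a cell type had the same sign, but the replicate 2 pair of LSK+ held 626 remote peaks in WT and 628 in XistΔ/Δ, close to no difference. The difference between the cell types was not tested. Groups of 2 libraries were too small for a search for outlying samples.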

How the results depend on the processing

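Of 206 recomputed values, 131 stayed close to the reported value in the same direction, 58 moved and 17 reversed. Counts were compared as numbers, and some moved under settings that also changed how many regions were remote. The causes were not tested. With 2 libraries a group the exact tests of library measures cannot reach 0.05 under any setting run, so their p-values, 0.111 to 1, say nothing of stability. The genotype difference in share became -0.0961 points in the top lists. That in median percentile became 0.804 with a -log10 q of at least 5, 1.15 at 50 kb and 0.160 when ranked by fold. The cell type difference in percentile became -1.17 in top lists, -0.754 with TSSs of every biotype and -1.03 without peaks of raised background, and the genotype difference in width became 59.0 bp in top lists.

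Counts follow in the order LSK+ only, LSK- only, gained in LSK+, lost in LSK+, gained in LSK- and lost in LSK-. They were 40, 51, 256, 0, 141 and 4 with all deposited peaks, 133, 95, 90, 62, 28 and 57 at 50 kb, 28, 8, 9, 15, 2 and 11 at 200 kb, and 24, 12, 10, 9, 4 and 11 with TSSs of every biotype. The distance and biotype settings also change how many regions are remote, and shares were not computed for them. Ranking by fold gave 61 gained and 19 lost in LSK+. Requiring a peak over 50% of the region gave 40 and 8 for the cell types and 14 and 10 lost.

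With the replicate block, limma called 109 remote regions for cell type and 1 for genotype. Among regions described with their values, the block added calls for those beside Myt1l, Mycn, Rplp1, Klf4, Ptprc and Cd47, given above, and removed none. Without the block, limma called 3 of 313 for cell type on log2 fold (136 of all 20845 regions). Among regions in all top lists it called 2 of 174 (76 of all 13949). At 50 kb it called 61 of 836 and at 200 kb 8 of 104, against 26 of 313 in the reported fit (893 of all 20845). Leaving out 1 library gave 0 to 25 for cell type and 0 for genotype.

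Leaving out 1 library gave genotype differences of 0.167 to 0.762 points in share, -2.48 to 0.402 in percentile and -54.25 to 14.5 bp in width, and cell type differences of -0.888 to -0.293 points, -0.972 to 1.91 and -95.75 to -27 bp. The presence counts then ranged, in the order above, from 66 to 119, 31 to 54, 0 to 173, 0 to 101, 0 to 42 and 0 to 79. Peak lists without reads limit presence to what each library's depth could detect.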

Other observations

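Remote peaks on the X chromosome, outside the comparisons above, made up 6.26% and 3.89% of X-linked peaks for WT and 7.43% and 5.96% for XistΔ/Δ among LSK+ libraries, and 5.17% and 4.58% for WT and 5.56% and 5.91% for XistΔ/Δ among LSK- libraries. The XistΔ/Δ libraries were higher in 4 of 4 pairs of the same replicate number, with 27 to 161 remote peaks in each library, but WT and XistΔ/Δ libraries overlapped (mean difference 1.24 points, exact permutation p = 0.111). These shares exceed the autosomal shares of the same libraries, which were 2.01% to 3.83%. How much of the X chromosome is remote sequence was not computed, so the shares lack a common base. Among autosomes it ranged from 11.9% on chromosome 9 to 27.8% on chromosome 3.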
